A study of Homo sapiens with 4 samples.

Results

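Histone genes were selected from the gene table of COLO205 cells by symbol, taking every gene whose name starts with H1-, H2A, H2B, H3-, H3C, H4-, H4C or MACROH2A. This rule, which uses no measured value, found 93 of the 19970 genes in the table, of which 92 are described. Of these, 70 belong to the histone gene clusters on chromosomes 1 and 6, 21 are replacement or variant histone genes elsewhere in the genome, and 1, H2AL1RP, is a pseudogene. COLO205, a cell line derived from a human colon adenocarcinoma, had been exposed for 24 h to 1 µM nonylphenol (NP), an industrial alkylphenol with estrogenic activity, or to its solvent DMSO (control). RNA was sequenced from 2 NP samples and 2 control samples, and the comparison asks which transcripts NP changed. It is not stated that the 2 samples of a group were grown as separate cultures. The p-values therefore reflect the spread of these samples alone. That spread was estimated partly across genes, so p-values and intervals do not show the spread of a single gene's samples. All 4 samples come from 1 cell line at 1 dose and 1 time.

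Histones package DNA. The core histones H2A, H2B, H3 and H4 form the nucleosome, and linker histone H1 binds the DNA where it enters and leaves. Clustered histone genes are transcribed mainly in S phase, when new DNA must be packaged, and their mRNAs typically end in a conserved stem-loop without a poly(A) tail. Replacement genes, such as those for H3.3 and H2A.Z, are typically expressed throughout the cell cycle and in resting cells. Their mRNAs are typically polyadenylated. The labels and methods do not state whether libraries were made from polyadenylated RNA.

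The stem-loop is shown first because it is the feature that sets the clustered mRNAs apart, and because its presence in the annotated transcripts can be set beside the reads. The histone stem-loop consensus of 16 bases was searched in the annotated GENCODE release 29 transcripts (GRCh38), on the transcript strand only. It was found in 31 of the 68 clustered genes in that annotation (45.6%), in 2 of 21 replacement genes (H2AX and H4-16) and in 25 of 19777 other genes (0.126%). The sequences below are read 5′ to 3′, with the stem-loop in capitals and 5 flanking bases on each side. For each form the clustered gene with the most reads is shown, and H2AX.
H2AC6: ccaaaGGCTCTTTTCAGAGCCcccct
H2AC11: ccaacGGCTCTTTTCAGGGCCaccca
H2BC5: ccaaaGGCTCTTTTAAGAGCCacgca
H3C6: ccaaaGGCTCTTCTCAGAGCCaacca
H4C8: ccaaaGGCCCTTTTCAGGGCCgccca
H4C9: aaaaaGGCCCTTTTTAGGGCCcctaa
H2AX: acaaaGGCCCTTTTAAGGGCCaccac
The form of H2AC6 was the most frequent among clustered genes (17 genes of the H2A, H2B and H3 families). The form of H2BC5 was found in 5 genes, and the forms of H4C8 and H4C9 in 4 and 3 H4 genes. A gene without a match lacks these letters in its annotated transcripts, which end at different places, and nothing is drawn from it about stem-loop binding.

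The 4 libraries held 13401691 to 16998129 counted reads, which fell on 14712 to 14893 genes. Levels are in CPM, the count of a gene relative to the size of its library after TMM scaling, whose factors lay between 0.9963 and 1.0037. NP and control were compared with the quasi-likelihood test of edgeR, and adjusted p-values cover all 12616 genes that passed its filter on low counts. The 9 colon epithelium markers summed to 6950 and 6880 CPM in NP samples and 7010 and 6970 CPM in control samples. The 5 fibroblast markers summed to 3.01 and 3.81 CPM in NP samples and 4.07 and 3.33 CPM in control samples, the 4 leukocyte markers to 2.01 and 1.12 CPM in NP and 1.59 and 1.47 CPM in control samples, and the 3 endothelium markers to 0.236 and 0 CPM in NP and 0.191 and 0.192 CPM in control samples. Of these, 2 fibroblast and 2 leukocyte markers had no read in any sample. No marker gene of these lists passed an adjusted p of 0.05 in edgeR.

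Replacement genes gave most reads of the genes described. They took 91.8% and 91.4% of these counts in NP samples and 91.1% and 90.9% in control samples. The median length was 1516 nt for replacement and 538 nt for clustered genes, so these shares of reads are not shares of transcripts. The 92 genes together took 0.394% and 0.378% of all counts in NP samples and 0.358% and 0.362% in control samples. Both NP samples lay above both control samples. The replacement genes summed to 3635 and 3465 CPM in NP samples, against 3249 and 3291 CPM in control samples, without overlap. Most of that difference lay in H3-3B and H1-10. The H2A replacement genes summed to 814 and 812 CPM in NP samples and 816 and 823 CPM in control samples. The clustered genes summed to 326 and 324 CPM in NP samples, against 318 and 328 CPM in control samples, with overlap. In bulk RNA, more cells that carry a transcript and more transcript per cell cannot be told apart.

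Of the 92 genes, 23 had no read in any sample, 19 had 1 to 9 counts over the 4 samples, and 38 passed the filter and were tested. The tested genes were 28 of 70 clustered and 10 of 21 replacement genes. Of the 4 replacement H2B genes, 2 had no read and the other 2 (H2BS1 and H2BE1) had 3 counts each. Among the genes without reads were H1-1, H1-8 (the oocyte linker histone), H2BC1 (a testis histone), H3C14, H3C15 and H4C1. H3C14 and H3C15 have the same length (1656 nt), GC content and stem-loop with flanks. Reads that match both may be dropped, and how the counting treated them is not given. For this pair a lack of reads does not show a lack of expression. H2AC7, H2AC15, H2AC17 and H3C4, also without reads, have exons that overlap those of other counted genes. Since poly(A) selection is not stated, a lack of reads does not show a lack of expression for the other clustered genes either.

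Per transcript length, the order of levels was steep. H3-3B averaged 328 FPKM (counts scaled by gene length and library total, as deposited) over the 4 samples, followed by H1-10 at 138, H2BC12 at 109, H1-2 at 74.3, H3-3A at 73.0, H2AC6 at 46.6, H2AX at 42.3 and H2AW at 38.9 FPKM. The highest clustered gene was H2BC12, with 2 of the described replacement genes above it. By this measure the replacement genes summed to 787.7 and 726.1 FPKM in NP samples and 660.4 and 670.6 FPKM in control samples. The clustered genes summed to 352.3 and 346.8 FPKM in NP samples and 343.5 and 351.2 FPKM in control samples. The neighbours H1-10 and H2BC12 differed in NP samples (192 and 147 FPKM for H1-10, 116 and 102 FPKM for H2BC12) and overlapped in control samples (104 and 110 FPKM for H1-10, 109 and 109 FPKM for H2BC12). H1-2 and H3-3A lie next to each other in this order and their values overlapped (72.1 to 78.3 FPKM for H1-2 and 70.6 to 76.9 FPKM for H3-3A). The lengths behind FPKM are those in the table, 17730 nt for MACROH2A1, so long genes with several isoforms are ranked low.

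**Figure D1:**
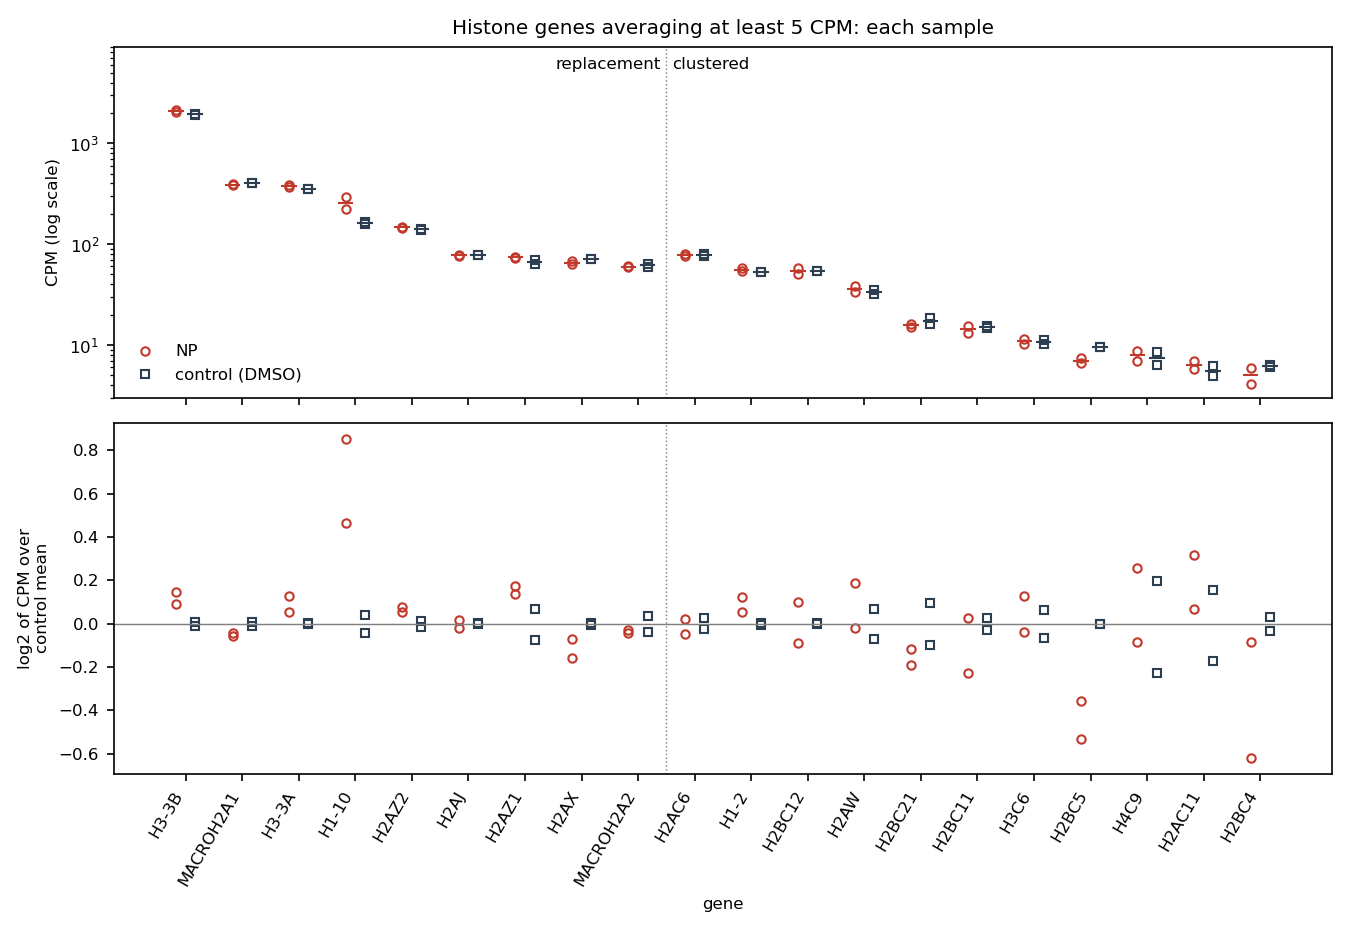
Histone genes averaging at least 5 CPM in each of the 4 samples, replacement genes left and clustered genes right of the dotted line, with NP as circles and control as squares. The upper panel gives CPM on a log axis with dashes at the group means, and the lower panel gives the log2 of each sample's CPM over the control mean, where H1-10 lies at 0.85 and 0.47 in the NP samples and both NP samples of H2BC5 lie below its control samples.

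In the comparison of NP with control, 2 of the 10 tested replacement genes passed an adjusted p of 0.05 in edgeR, both higher, namely H1-10 and H3-3B. None was lower. Of all genes tested, 4.06% were called, 2.35% higher and 1.7% lower. None of the 28 tested clustered genes passed in either direction, and 1 was higher and 1 lower at an unadjusted p of 0.05, a threshold that 15.1% of all genes tested passed in 1 direction or the other. DESeq2 and edgeR's exact test also called no clustered gene. The median log2 fold change was 0.05 over the tested replacement genes and 0.03 over the tested clustered genes, beside 0.0015 over all genes. Both NP samples lay above both control samples in 5 replacement and 5 clustered genes, and below in 2 and 3, while over all genes the shares were 22.5% and 21.7%.

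**Figure D2:**
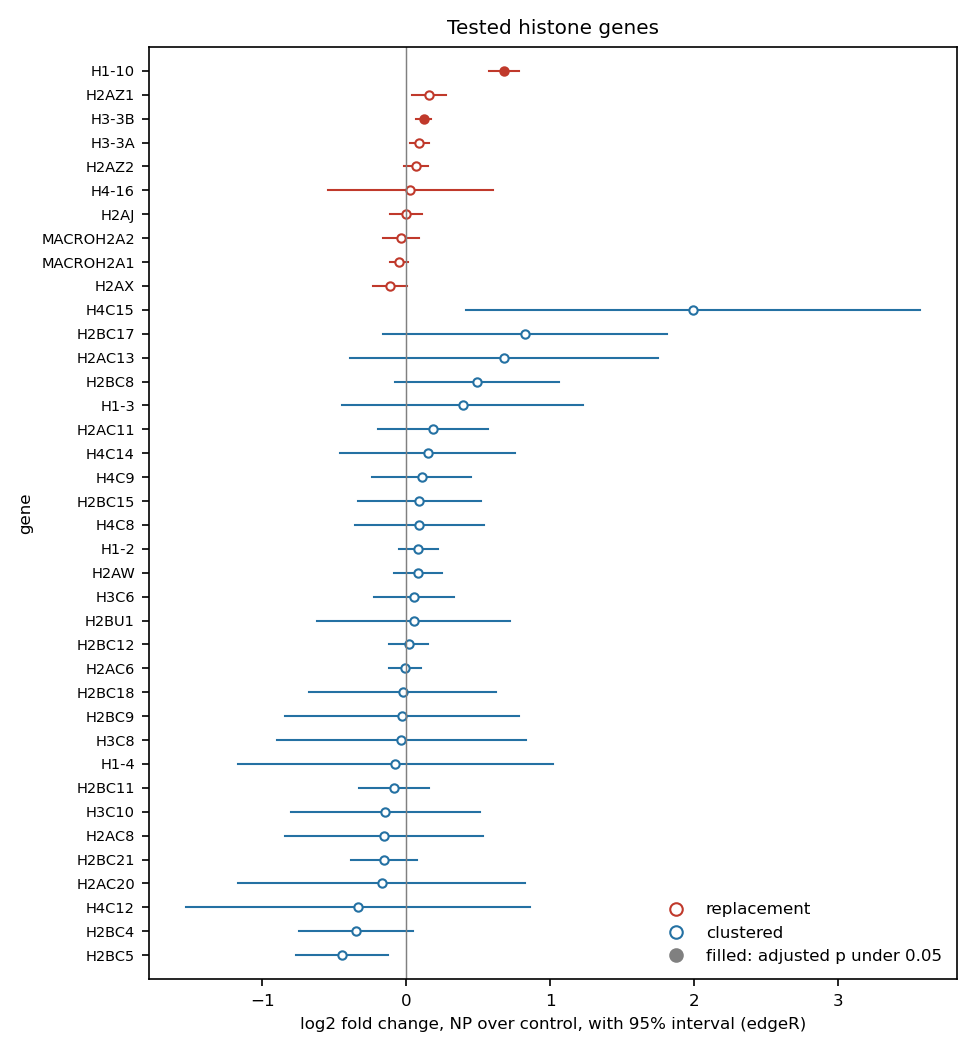
Log2 fold change of NP over control for the 38 tested histone genes (points) with 95% intervals computed from the edgeR fit (lines). Replacement genes are in red above clustered genes in blue, filled where the adjusted p was under 0.05. H1-10 stands at 0.68 and H3-3B at 0.12, and the clustered genes, all open, reach from -0.45 (H2BC5) to 1.99 (H4C15).

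The linker histone gene H1-10, outside the clusters, rose. It encodes H1.10 (H1x), a variant linker histone found in many tissues. Its level was 292 and 223 CPM in NP samples, against 157 and 166 CPM in control samples. The groups did not overlap, but the NP samples differed from each other more than the control samples did. The mean was 257.5 ± 48.3 CPM in NP samples and 162 ± 6.46 CPM in control samples (SD, n = 2 each). The log2 fold change was 0.68 (SE 0.053, 95% interval 0.57 to 0.79, adjusted p = 1.5e-15 in edgeR), the second smallest p of all 12616 genes. The test shares its estimate of spread across genes, so the interval is not the spread of the 2 NP samples. Over the control mean those samples lay at 0.85 and 0.47, both outside the interval. The size depended on the NP sample used. It was 0.47 without NP replicate 1 and 0.85 without NP replicate 2, past the threshold in both, and DESeq2 gave 0.67 with an adjusted p of 0.052. The gene lies at chr3:129314771-129316286 on the minus strand (GRCh38) and its annotated span overlaps the antisense gene H1FX-AS1. The sources do not say whether counting used the strand, so reads of the pair cannot be told apart.

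Of the 3 clustered H1 genes tested, H1-2 was the most abundant, with 54.6 and 57.3 CPM in NP samples and 52.5 and 52.9 CPM in control samples. Its log2 fold change was 0.08 (95% interval -0.05 to 0.22, adjusted p = 0.61 in edgeR). H1-3 and H1-4, with under 2 CPM each, did not pass the test.

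The promoter sequences of H1-10 and H3-3B, the 2 described genes that rose, are shown to set their elements beside those of the other histone genes. They are the 250 bases before the RefSeq start (GRCh38.p14), read 5′ to 3′ in the direction of the gene, with CCAAT and TATAAA in capitals. H1-10 lies on the minus strand at chr3:129316287-129316536, and H3-3B on the minus strand at chr17:75779780-75780029. The H3-3B window lies inside the span used for counting, 75776434 to 75785893, so the gene's span begins upstream of it. GENCODE 29 lists 13 transcripts of H3-3B, and its counts are not split by transcript.
H1-10: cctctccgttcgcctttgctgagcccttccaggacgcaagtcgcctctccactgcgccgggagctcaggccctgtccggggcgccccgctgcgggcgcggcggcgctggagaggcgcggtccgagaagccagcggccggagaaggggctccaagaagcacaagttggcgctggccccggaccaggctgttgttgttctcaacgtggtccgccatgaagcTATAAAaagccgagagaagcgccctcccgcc
H3-3B: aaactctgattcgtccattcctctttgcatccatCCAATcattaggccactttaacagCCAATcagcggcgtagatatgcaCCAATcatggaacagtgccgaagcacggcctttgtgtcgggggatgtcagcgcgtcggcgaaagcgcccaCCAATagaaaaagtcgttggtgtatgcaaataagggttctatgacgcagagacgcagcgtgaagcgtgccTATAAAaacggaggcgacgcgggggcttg
The TATAAA of H1-10 begins 31 bases before the start, where positions are counted back from the start, and no CCAAT was found in that window. H3-3B has CCAAT at -216, -192, -169 and -99 and TATAAA at -29. In RefSeq windows of this length, read on both strands, 79 of the 92 histone genes matched an entry. CCAAT was in 53 of 62 clustered and 14 of 17 replacement promoters, against 32.0% of all 35116 promoters. TATAAA was in 42 of 62 clustered (67.7%) and 5 of 17 replacement promoters (29.4%), against 10.7% of all promoters. The CRE letters TGACGTCA were in 9 clustered and no replacement promoter, against 1.65% of all. The H1 box AAACACA was in 6 clustered and 1 replacement promoter, against 4.82% of all, and GGGCGG in 17 and 8, against 42.6%. A match is a string of letters and not a site of binding.

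The H3.3 genes H3-3A and H3-3B encode the same H3 protein, which replaces H3 outside S phase. H3-3B had 2139 and 2058 CPM in NP samples, against 1918 and 1944 CPM in control samples. Both NP samples lay above both control samples. The means were 2098 ± 57.4 CPM in NP samples and 1931 ± 18.5 CPM in control samples (SD, n = 2 each). The log2 fold change was 0.12 (SE 0.024, 95% interval 0.07 to 0.17, adjusted p = 0.00073 in edgeR). It was 0.09 without NP replicate 1, no longer past the threshold (adjusted p = 0.17), and under limma on FPKM the adjusted p was 0.13 and 0.12. H3-3B lies at chr17:75776434-75785893 on the minus strand, and its span overlaps UNK on the opposite strand and MIR4738. H3-3A, at 387 and 368 CPM in NP samples and 355.5 and 354 CPM in control samples, was also above in both NP samples, by 0.09 on the log2 scale (adjusted p = 0.11 in edgeR), and did not pass the test. H3-3B gave 81.9% and 82.1% of the summed H3.3 FPKM in NP samples and 81.5% and 81.8% in control samples, and the groups lay next to each other within that narrow range.

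The clustered H3 gene H3C6 had 11.6 and 10.3 CPM in NP samples and 10.1 and 11.1 CPM in control samples, and the groups overlapped. Its log2 fold change was 0.05. The other tested clustered H3 genes, H3C10 and H3C8, had under 3 CPM.

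None of the 6 tested H2A replacement genes passed the test. The H2A replacement genes summed to 814 and 812 CPM in NP samples, against 816 and 823 CPM in control samples. H2AZ1, which encodes H2A.Z, a variant at promoters and enhancers, had 74.7 and 72.9 CPM in NP samples, against 63.0 and 69.6 CPM in control samples. Its log2 fold change was 0.16 (SE 0.059, adjusted p = 0.15 in edgeR). H2AZ2, the gene for the second H2A.Z, had 148 and 146 CPM in NP samples, against 142 and 139 CPM in control samples, a log2 fold change of 0.07 that did not pass. H2AX encodes the variant that is phosphorylated at DNA breaks, and its level was 67.6 and 63.65 CPM in NP samples and 70.8 and 71.3 CPM in control samples, a log2 fold change of -0.11 that did not pass (adjusted p = 0.37 in edgeR). MACROH2A1 and MACROH2A2, whose proteins mark silent chromatin such as the inactive X chromosome, had log2 fold changes of -0.05 and -0.04. MACROH2A1 had 387 and 391 CPM in NP samples, against 401 and 406 CPM in control samples, without overlap. H2AX was likewise below in both NP samples, and H2AZ1 and H2AZ2 were above in both. Over all genes, 22.5% lay above in this way and 21.7% below. H2AJ differed by -0.0034, with a 95% interval of -0.11 to 0.11. For 8 of the 10 tested replacement genes, all but H1-10 and H4-16, the interval lay within 1.5-fold in either direction.

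Among clustered H2A genes, H2AC6 had 79.3 and 75.7 CPM in NP samples and 79.5 and 76.8 CPM in control samples. Its log2 fold change was -0.01 (95% interval -0.12 to 0.10). H2AW, at 33.3 and 38.5 CPM in NP samples and 32.2 and 35.4 CPM in control samples, gave 0.08. H2AC11 gave 0.19 with 5.79 and 6.87 CPM in NP samples against 4.9 and 6.145 CPM in control samples. The ranges of each of these genes overlapped between groups.

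The smallest p of the tested clustered genes was that of H2BC5, an H2B gene at chr6:26158146-26171349. It had 6.56 and 7.4 CPM in NP samples, against 9.48 and 9.47 CPM in control samples, from 111 and 99 counts in NP and 149 and 148 counts in control samples. Both NP samples lay below both control samples. The log2 fold change was -0.45 (SE 0.160, 95% interval -0.77 to -0.13, adjusted p = 0.11 in edgeR). With offsets for gene length it was -0.54 (adjusted p = 0.035), and limma on log2(FPKM + 0.1) gave -0.45 (adjusted p = 0.043). H2BC12, the most abundant H2B gene, had 57.7 and 50.6 CPM in NP samples against 53.6 and 53.8 CPM in control samples, with a log2 fold change of 0.02 (95% interval -0.12 to 0.15). H2BC21 gave -0.16, H2BC11 -0.08 and H2BC4 -0.35, and none passed the test. H2BC4 had 4.08 and 5.9 CPM in NP samples, against 6.11 and 6.4 CPM in control samples.

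H4C9, the most abundant H4 gene, had 8.8 and 6.95 CPM in NP samples and 6.3 and 8.45 CPM in control samples, and the groups overlapped. Its log2 fold change was 0.11. H4C15 had the largest fold change of the tested clustered genes, 1.99 (SE 0.790, adjusted p = 0.17 in edgeR), and was chosen for naming after its values were seen. It rests on 11 and 9 counts in NP samples against 3 and 2 in control samples, and its duplicate copy H4C14 gave 0.15. Reads that match both copies may be split or dropped, and how the counting treated them is not given, so values of the pair are uncertain. H4-16, the H4 gene outside the clusters, had 2.66 and 2.62 CPM in NP samples and 2.29 and 2.88 CPM in control samples.

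**Figure D3:**
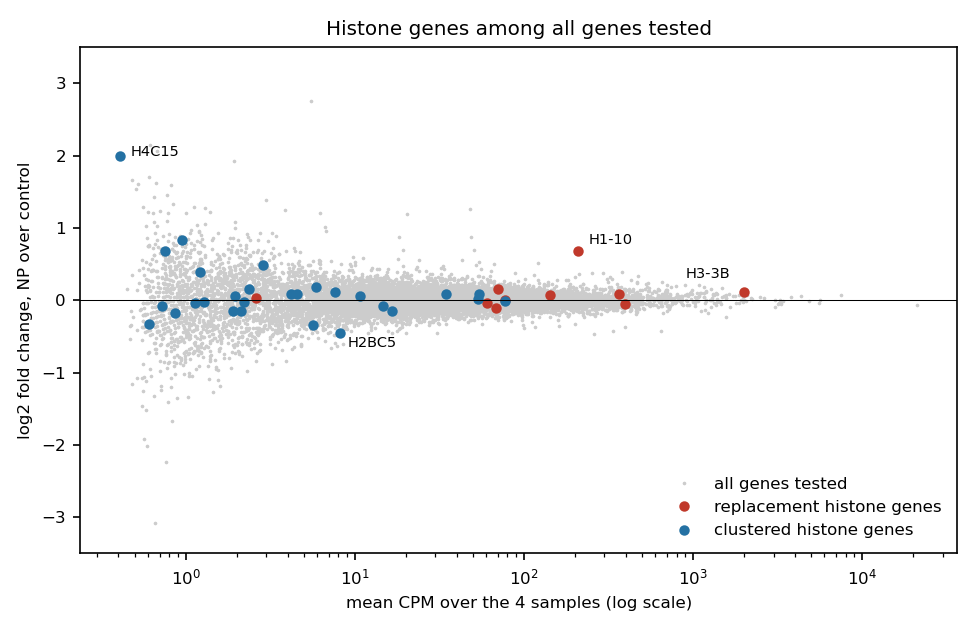
Log2 fold change of NP over control against the mean CPM (log axis) for the tested genes in grey, with the described histone genes coloured by class. H1-10 and H3-3B lie above 0 at high levels, and the clustered genes spread more widely towards low levels, where H4C15 stands at 1.99.

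For the clustered genes the precision sets what can be said. The 95% interval lay within 1.5-fold for 11 of 28 tested genes and within 2-fold for 20. The narrowest were those of H1-2, H2AC6, H2AW and H2BC12. Smaller changes in the other genes were not detectable at this depth. When tested genes were split into 5 bins by length, the bin of the shortest genes (207 to 2933 nt) held 31 of the 38 tested histone genes, and 4.87% of its genes were called higher. Its median log2 fold change was 0.043, and with offsets for length the median of clustered genes was -0.03. With those offsets H1-10 was 0.62 and H3-3B 0.12.

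The 12 untested genes with at least 10 counts over the 4 samples all had exact 95% intervals of the ratio that include 1, covering counting error only. The ratio of NP to control levels was 3.43 for H2AC14 (5 and 5 counts in NP samples, 0 and 3 in control samples, 0.883 to 19.4) and 0.343 for H3-4 (0 and 3 counts in NP samples, 3 and 6 in control samples, 0.0597 to 1.37). H4C3 had 7 and 3 counts in NP samples against 2 and 2 in control samples. The other 9 were H2AC16, H2BC6, H2BC7, H3C13, H3C2, H3C3, H4C5, H4C11 and H3-5.

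By locus, the clustered reads were spread unevenly. The 34 genes between positions 25726063 and 26285638 of chromosome 6 summed to 173 and 171 CPM in NP samples, against 172 and 171 CPM in control samples. The 21 genes between 27125897 and 27893891 of the same chromosome summed to 97.1 and 88.9 CPM in NP and 89.5 and 93.6 CPM in control samples. The 12 genes in the first chromosome 1 locus, 143894544 to 149887965, gave 21.3 and 23.1 CPM in NP and 21.5 and 25.3 CPM in control samples, and the 3 genes between 228424845 and 228460470 gave 35.2 and 40.9 CPM in NP and 34.3 and 37.7 CPM in control samples. Sums overlapped between groups at each of the 4 loci.

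The median count of clustered genes was highest where 100 or more bases are annotated after the stem-loop. The 22 clustered genes with 100 or more annotated bases after it had a median of 139.5 counts over the 4 samples, and 17 were tested. The 9 genes with fewer than 100 bases had a median of 12 counts, and 3 were tested. The 37 genes without a match had a median of 3 counts and 8 tested genes. Table length differed with the groups (median 1902.5, 509 and 495 nt), and per length the medians were 1.05, 0.387 and 0.102 FPKM. The part of length, and that of poly(A) tails, in this order was not tested. The genes with the longer ends summed to 182 and 186 CPM in NP samples, against 178 and 186 CPM in control samples, and the groups overlapped. Those with the shorter ends, H2BC5 among them, summed to 10.0 and 10.2 CPM in NP samples, against 13.5 and 12.6 CPM in control samples, without overlap. H2BC5 alone gave 6.56 and 7.4 CPM of this in NP samples, and 9.48 and 9.47 CPM in control samples. The gap therefore rests largely on H2BC5, which did not pass the test. H2BC5 has 2 annotated transcripts, and its 39 bases after the stem-loop are those of a transcript with the match. Its counts are not split by transcript, so they may not be those of mRNAs with short ends alone. The genes without a match summed to 134 and 128 CPM in NP samples, against 126 and 128 CPM in control samples. H2BC12 and H1-2, the clustered genes with the highest FPKM, are among these. The annotated transcript of H2BC12 has 381 nt against a table length of 495 nt. A stem-loop beyond an annotated end cannot be found by this search.

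**Figure D4:**
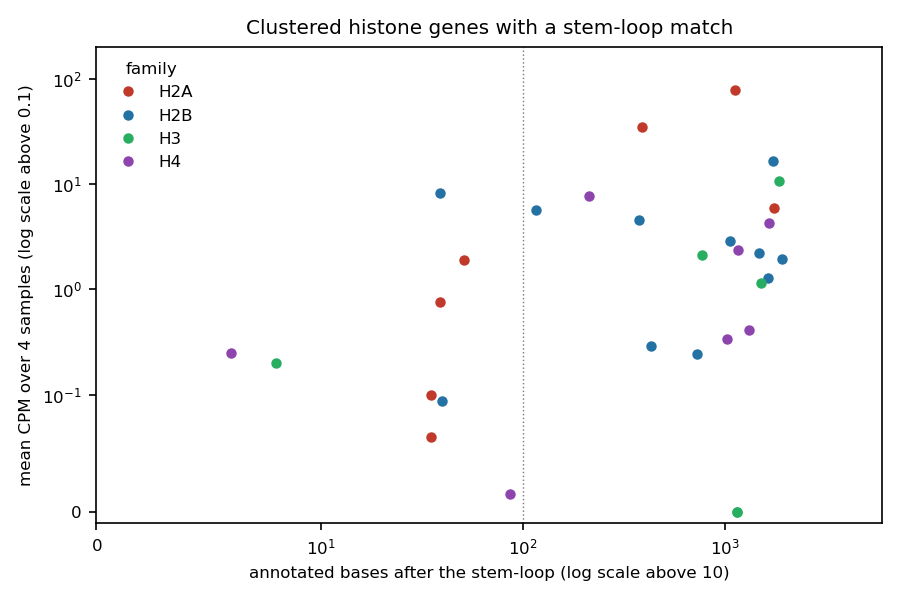
Mean CPM over the 4 samples (log axis above 0.1) of the 31 clustered histone genes with a stem-loop match, against the number of annotated bases after it (log axis above 10), coloured by family, with a dotted line at 100 bases. The median was 2.29 CPM to the right of the line and 0.2 CPM to its left. The 2 genes without reads on the right are H3C14 and H3C15, where reads that match both may have been dropped.

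The genes that act on histone mRNA and protein were taken as context. Of 28 genes for histone mRNA transcription and 3′ end processing, none passed the test, and DESeq2 called none. At an unadjusted p of 0.05, 1 was lower and none higher in edgeR (15.1% of all genes in either direction), and the median log2 fold change was -0.03. NCBP1, a cap-binding protein, gave -0.05, and UPF1, an RNA helicase used in histone mRNA decay, gave -0.07. Of 41 tested histone chaperones and deposition factors, 2 were higher and 2 lower in edgeR, beside 2.35% and 1.7% of all genes, and DESeq2 called 1 higher and none lower. SET had 378 and 392.4 CPM in NP samples against 333 and 346.5 CPM in control samples, a log2 fold change of 0.18 (adjusted p = 0.00016 in edgeR), lost only under both limma fits among the 15 alternatives. NPM1, a nucleolar chaperone, gave 0.095 (adjusted p = 0.022 in edgeR), and lost its call without NP replicate 1, NP replicate 2 or control replicate 1. CHAF1A, the large subunit of the factor that places new H3-H4 on replicated DNA, had 25.8 and 24.9 CPM in NP samples against 30.2 and 32.3 CPM in control samples, with -0.30 (adjusted p = 0.038 in edgeR), and lost its call when any sample was left out. MCM2, a helicase subunit that also binds H3-H4, gave -0.21 (adjusted p = 0.032 in edgeR) and lost its call without NP replicate 1 or control replicate 1. NPM1, CHAF1A and MCM2 also lost their calls with DESeq2, both limma fits and GC offsets. Without each sample in turn, 1 or 2 of the list were higher and 0 or 1 lower.

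Of 46 genes for S phase entry and DNA replication, 5 were lower and none higher in edgeR, beside 1.7% and 2.35% of all genes, with a median log2 fold change of -0.10, and DESeq2 called none. At an unadjusted p of 0.05, 11 were lower and 2 higher, beside 15.1% of all genes in either direction. POLE, the catalytic subunit of DNA polymerase epsilon, had 109 and 101.5 CPM in NP samples against 126 and 113 CPM in control samples, with -0.18 (adjusted p = 0.017 in edgeR), lost without NP replicate 2 or control replicate 1 and with length offsets. The helicase subunits MCM4, MCM6 and MCM3 gave -0.22, -0.28 and -0.13. These 4 genes lost their calls with DESeq2 and both limma fits. MCM4 also lost its call without NP replicate 2 or control replicate 1, MCM6 without NP replicate 1, NP replicate 2 or control replicate 1, and MCM3 without NP replicate 2 or control replicate 2. The list count was 3 without NP replicate 1 or control replicate 2, and 1 without NP replicate 2 or control replicate 1. Whether the replication genes differ from the histone genes in their change was not tested.

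**Figure D5:**
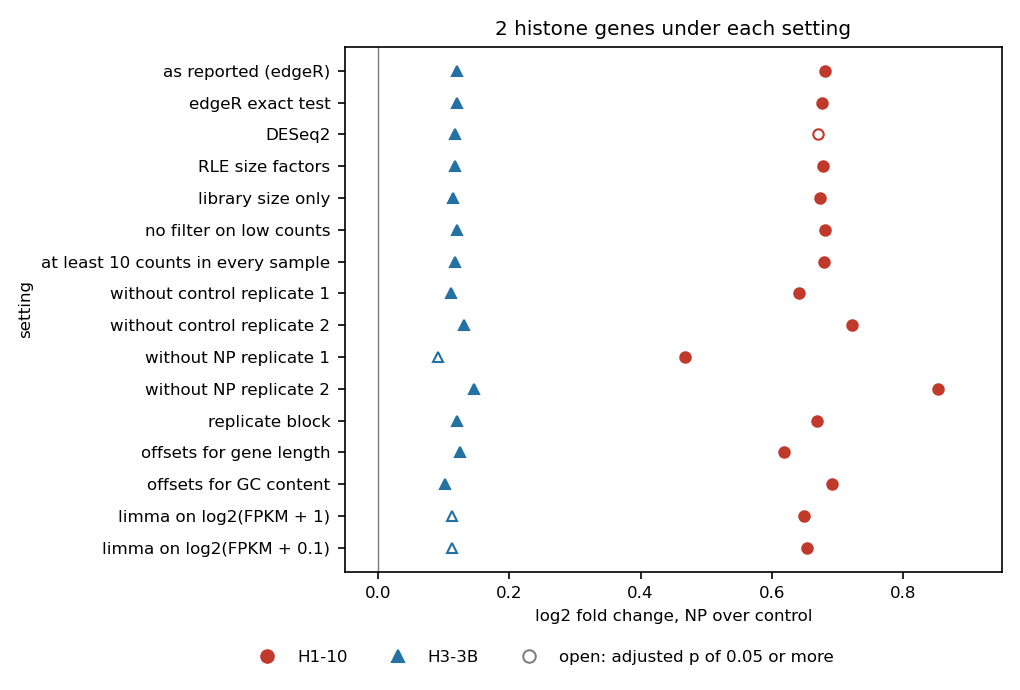
Log2 fold change of NP over control for H1-10 and H3-3B in edgeR as reported (top) and under each of its 15 alternatives, with open points for an adjusted p of 0.05 or more. H1-10 ranges from 0.47 to 0.85 with 1 open point (DESeq2), and H3-3B from 0.09 to 0.15 with 3.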

How the data were processed

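RNA sequencing gave 1 table for 2 NP and 2 control samples. Its counts are whole reads per gene that the authors deposited, with HISAT2, HTSeq and the build GRCh38 named by the submitters' processing notes without versions. FPKM values, also deposited, divide these counts by table length and library total. Histone members, lists and tests were chosen with earlier results of these data known. Among the 93 genes of the rule, 1 is not reported here, and it stays in the fits and the counts over all genes.

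Genes with low counts were removed with filterByExpr (minimum count 10). edgeR 4.0.16 (R 4.3.3) with TMM gave quasi-likelihood tests, adjusted by Benjamini-Hochberg. SE was the log2 fold change over the root of F. The 95% intervals of fold changes were the log2 fold change plus or minus 2.0 SE, with the same t quantile for every gene. The fits were tested on simulated data. Named were tested histone genes at 5 CPM or more, those past 0.05, untested ones with 10 counts or more, and of each list up to 4 passing genes or, with none, the 2 with most counts. The alternatives were edgeR's exact test, DESeq2 1.42.0, RLE factors, library size only, 2 other filters, each sample left out, the replicate block, length and GC offsets, and limma 3.58.1 on log2(FPKM + 1) and log2(FPKM + 0.1). The labels' replicate numbers name no shared culture. Exact intervals (95%) cover counting error only. Stem-loops and overlaps came from GENCODE 29, which holds 99.63% of the table's identifiers.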

Additional observations from a re-analysis of the deposited data

How the results depend on the processing

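H1-10, H3-3B and H2BC5 kept their direction under all 15 alternatives. Among the named genes that did not pass the test, H1-2, H2AC6, H2AJ, H2AW, H2BC11, H2BC12, H3C6, H4C9 and MACROH2A2 changed sign under 1 to 3 alternatives. H4C15 was not followed across alternatives. H1-10 missed the threshold with DESeq2 (0.67, adjusted p = 0.052), H3-3B without NP replicate 1 and under both limma fits, and H2BC5 passed it with length offsets and with limma on log2(FPKM + 0.1), which put 1 clustered gene on the lower side in each. Of the replacement genes, 2 were higher as reported, against 1 with DESeq2 and with each limma fit, and 1 to 2 with 1 sample left out (1 without NP replicate 1). Over all genes, 297 were higher and 215 lower, against 78 and 47 with DESeq2, 45 and 16 with limma on log2(FPKM + 1), and 53 and 18 with limma on log2(FPKM + 0.1). With 1 sample left out the counts were 134 to 283 higher and 87 to 160 lower. The median of clustered genes was 0.0341, against -0.033 with length offsets and 0.0416 to 0.101 with 1 sample left out. That of replacement genes was 0.0481, against 0.0925 with no filter (15 genes) and 0.035 to 0.0726 with 1 sample left out. The cause of these shifts was not tested. With the replicate number as a block, 372 genes were higher and 280 lower, and H1-10 and H3-3B were again the described histone genes called. Across genes, same-numbered samples did not deviate together (correlation of 0). With 2 samples in each group, this cannot show whether they shared a culture or a batch. The low counts of most clustered genes give wide intervals.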

Other observations

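The 5 clustered genes whose stem-loop has the form of H2BC5 are H2BC4, H2BC5, H2BC7, H3-4 and H3C8. Of the 3 that were tested, H2BC5 gave a log2 fold change of -0.45, H2BC4 of -0.35 and H3C8 of -0.03. These genes were set together after their values had been seen, so this is a description with no test. H2BC7 had 4 and 4 counts in NP samples against 5 and 2 in control samples, and H3-4 had 0 and 3 counts in NP samples against 3 and 6 in control samples.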
